A study of Mus musculus with 75 samples.

Results

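Bile acid synthesis and transport in the mouse liver was followed through 10 genes, chosen by name from the 55536 genes of the count table. These were the synthesis enzymes Cyp7a1, Cyp8b1, Cyp27a1 and Cyp7b1, the conjugating enzyme Baat, the uptake carriers Slc10a1, Slco1a1 and Slco1b2, the exporter Abcb11 and the regulator Nr0b2. Each name matched a single row of the table, and all 10 genes passed the filter on low counts in every comparison. The genes were named by their known roles, with earlier results of these data known.

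All livers were from wild type male C57Bl/6 mice, per the labels. Their dams received either vehicle or the organotin tributyltin (TBT) in the drinking water (3.07 µM, a daily dose of 0.5 mg per kg), until the pups were weaned, so that every TBT liver was exposed through the mother only. Bulk RNA was sequenced from stranded total RNA libraries at 3 weeks (7 vehicle and 8 TBT mice), 5 months (8 vehicle mice, with 16 TBT mice called low-risk and 10 called high-risk) and 10 months (6 vehicle livers, 5 low-risk TBT livers, 6 libraries of uninvolved liver from high-risk TBT mice and 7 TBT tumors). What put a mouse in either risk class at 5 months is not given in the sources used here. The labels number the mice but do not state litters, so that p-values measure the spread between these samples only.

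Bile acids are made from cholesterol in hepatocytes. The classic route starts with Cyp7a1, its rate-limiting enzyme, and Cyp8b1 then directs the product towards cholic acid; the alternative route uses Cyp27a1 and the oxysterol hydroxylase Cyp7b1. Baat joins bile acids to taurine or glycine, Abcb11 (the bile salt export pump) moves them into bile, and Slc10a1 (the sodium-dependent carrier NTCP) with the organic anion carriers Slco1b2 and Slco1a1 takes them back up from portal blood. Bile acids activate the receptor FXR (Nr1h4), which raises Abcb11 and Nr0b2 (the small heterodimer partner, SHP), and Nr0b2 represses Cyp7a1 and Cyp8b1. In mice Slco1a1 and Cyp7b1 are known to be higher in males after puberty.

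The RefSeq promoter table of the mouse build GRCm38.p6 held 7 of the 10 genes, with no entry for Cyp7a1, Cyp7b1 and Baat. The 250 bases before the start site are shown for the neighbouring carrier genes Slco1a1 and Slco1b2, whose levels in high-risk and low-risk livers did not overlap, for a synthesis enzyme, for the exporter and for the regulator. Each is written 5′ to 3′ on the gene's own strand, with motif matches in capitals. The positions are chr6:141946963-141947212 (minus strand) for Slco1a1, chr6:141629268-141629517 (plus strand) for Slco1b2, chr9:121916306-121916555 (minus strand) for Cyp8b1, chr2:69342617-69342866 (minus strand) for Abcb11 and chr4:133553126-133553375 (plus strand) for Nr0b2.
Slco1a1: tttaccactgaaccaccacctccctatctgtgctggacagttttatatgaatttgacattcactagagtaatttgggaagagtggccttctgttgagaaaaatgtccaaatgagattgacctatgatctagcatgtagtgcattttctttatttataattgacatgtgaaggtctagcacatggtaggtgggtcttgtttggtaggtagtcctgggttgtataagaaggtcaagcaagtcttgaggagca
Slco1b2: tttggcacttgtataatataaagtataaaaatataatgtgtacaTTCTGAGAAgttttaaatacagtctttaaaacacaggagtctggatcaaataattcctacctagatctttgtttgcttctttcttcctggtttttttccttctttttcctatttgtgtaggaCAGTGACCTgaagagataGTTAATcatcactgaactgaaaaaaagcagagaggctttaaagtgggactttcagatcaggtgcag
Cyp8b1: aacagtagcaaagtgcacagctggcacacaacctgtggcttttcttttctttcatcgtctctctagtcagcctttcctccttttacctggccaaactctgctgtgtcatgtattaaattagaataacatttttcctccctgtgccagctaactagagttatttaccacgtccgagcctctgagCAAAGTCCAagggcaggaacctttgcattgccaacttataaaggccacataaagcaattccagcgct
Abcb11: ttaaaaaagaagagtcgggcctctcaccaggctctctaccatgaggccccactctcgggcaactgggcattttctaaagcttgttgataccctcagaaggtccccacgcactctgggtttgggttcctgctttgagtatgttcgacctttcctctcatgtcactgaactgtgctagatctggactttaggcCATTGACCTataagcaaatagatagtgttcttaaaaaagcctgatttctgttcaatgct
Nr0b2: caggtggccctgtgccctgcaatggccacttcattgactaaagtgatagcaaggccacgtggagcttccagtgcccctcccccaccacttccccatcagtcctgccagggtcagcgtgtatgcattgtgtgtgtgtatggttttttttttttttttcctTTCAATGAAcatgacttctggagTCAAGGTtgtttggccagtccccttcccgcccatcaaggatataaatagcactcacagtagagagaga

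The capitals mark matches to 5 motifs searched on both strands, chosen after the sequences had been seen. CANTGACCT, a part but not the whole of the inverted repeat that FXR binds, started 59 bases before the Abcb11 start site and 84 bases before that of Slco1b2. It occurred in 1.02% of all 32851 promoter windows of the table. CAAAGTCCA, an HNF4-type motif, started 67 bases before the Cyp8b1 start site and occurred in 0.384% of windows. TCAAGGT, the core of the motif bound by LRH-1 (Nr5a2), started 68 bases before the Nr0b2 start site (2.96% of windows), and GTTAAT, an HNF1-type motif, 66 bases before that of Slco1b2 (6.43% of windows). TTCNNNGAA, the STAT5-type motif, was found at 91 bases in Nr0b2, at 206 bases in Slco1b2 and at 53 bases in Slc10a1, whose sequence is not shown (7.02% of windows). No motif overlapped another in these windows. The Slco1a1 window held none of these letters. The matches describe letters only, since no binding was measured here.

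Library totals ran from 2831666 to 45448610 counts, and the lowest count of any of the 10 genes in any sample was 11, for Nr0b2 in vehicle mouse 9 of 5 months. Of 75 libraries, 6 stood apart by a low total, an unusually large number of detected genes or a high mitochondrial share. All comparisons at 5 months carried the sequencing batch as a covariate, because only 1 of the vehicle libraries, but 10 low-risk and 7 of the high-risk libraries, fell in batch 2. The counts had already been adjusted between batches by the authors. Which groups that step protected is not known, so the counts may carry group information from it. Its effect on the p-values and on results within single batches was not tested. At 3 weeks, TBT mouse 4 had 309.8 scaled CPM of the female-expressed RNA Xist against its male label, and low-risk mouse 24 of 5 months had 95.9, while no other library exceeded 7.27. The Y-linked genes Ddx3y, Uty, Kdm5d and Eif2s3y summed to 6.3 scaled CPM in TBT mouse 4. In low-risk mouse 24 they summed to 269, and in every other sample to at least 88.6. The uninvolved libraries of mice 3 and 6 resembled each other more closely than any other replicate pair and were counted as 1 sample. The hepatocyte genes Alb, Apoa1, Ttr, Apob and Fgb summed to at least 62175 scaled CPM in every library. Levels below are CPM values scaled with edgeR's TMM factors (scaled CPM), and per kb of exon where genes are compared with each other.

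Per kb of exon, the other 8 genes stood far above Cyp7a1 and Nr0b2 in 10-month vehicle liver. There, Slco1b2 had the highest median level, 467 scaled CPM per kb (415 to 489). Cyp8b1 followed at 361, Slc10a1 at 335, Cyp27a1 at 317, Cyp7b1 at 221, Abcb11 at 207, Slco1a1 at 176 and Baat at 167 scaled CPM per kb, and the ranges of each neighbouring pair in this order overlapped. Below a gap came Cyp7a1 at 34.3 and Nr0b2 at 21.5 scaled CPM per kb, which overlapped each other. In 3-week vehicle liver the order was different. Slc10a1 led at 302 scaled CPM per kb, while Cyp7b1 at 8.31 and Slco1a1 at 4.13 stood at the bottom and overlapped each other. In high-risk livers of 5 months and in tumors Slco1a1 had the lowest median of the 10, 4.76 and 13.4 scaled CPM per kb, overlapping Cyp7a1 and Nr0b2.

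**Figure D1:**
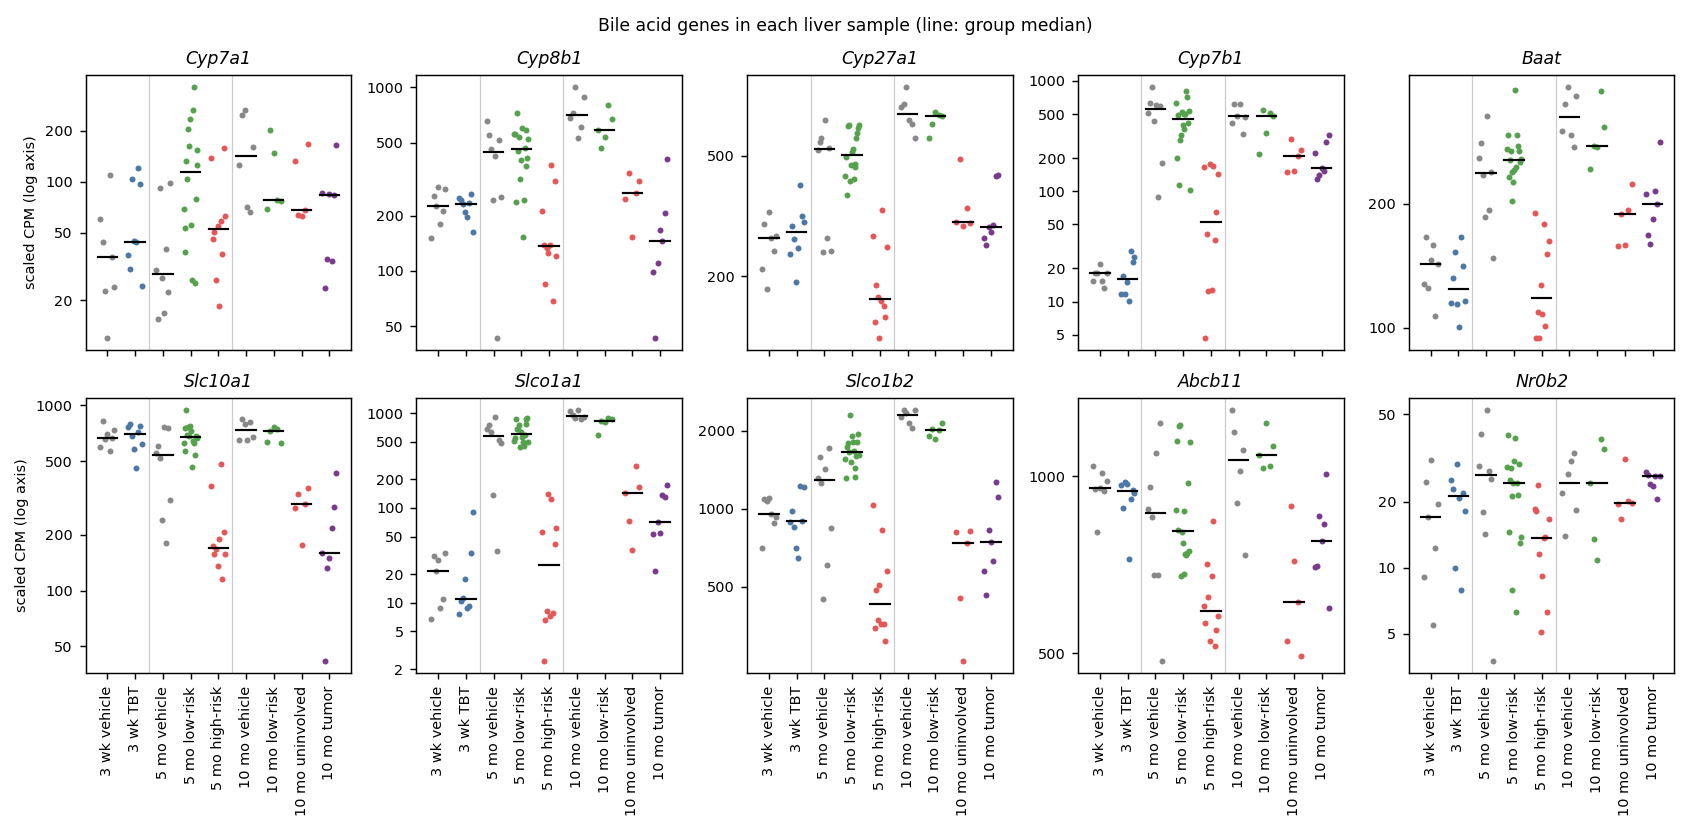
Level of each of the 10 genes (vertical axis, scaled CPM on a log scale) in every sample, by age and group; points are samples and short lines are group medians. High-risk livers of 5 months and uninvolved livers and tumors of 10 months sit low for Slco1a1, Slco1b2, Slc10a1, Cyp8b1 and Cyp27a1, while Cyp7a1 scatters widely, from 25.4 to 361 in low-risk livers of 5 months.

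The first comparison asked whether maternal TBT had changed these genes by weaning. None of the 10 genes was called between TBT and vehicle livers at 3 weeks (edgeR's quasi-likelihood test, Benjamini-Hochberg adjusted p of 0.999 for each), none had an unadjusted p under 0.05, and DESeq2 called none. Differences ran from -0.10 for Baat to 0.50 (SE 0.48) for Cyp7a1 on the log2 scale, with a median of 0.02 beside 0.01 over all genes. No gene of the table was called (0% of 14050), although 474 genes had an unadjusted p under 0.05 and DESeq2 called 2. Slco1a1 had 6.69 scaled CPM in the lowest, 21.8 in the median and 33.9 in the highest vehicle liver, and 7.62, 11 and 91 in TBT livers. The groups overlapped apart from TBT mouse 8, which held the highest value.

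At 5 months, high-risk livers had less RNA of bile acid genes than low-risk livers in synthesis, conjugation, uptake and export. Of the 10 genes, 9 were lower and none was higher; 18.5% of 14773 genes tested were lower and 20.3% higher. The 9 were the enzymes Cyp8b1, Cyp27a1 and Cyp7b1, the conjugating enzyme Baat, the 3 uptake carriers, Abcb11 and Nr0b2. Of the 10, 4 were lower with no overlap between the groups, beside 0.528% of all genes tested. The median difference of the 10 genes was -1.39 on the log2 scale, beside -0.01 over all genes. In bulk RNA, fewer cells of a type and less RNA per cell cannot be told apart.

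The uptake carriers held the largest difference. Slco1a1 had 442 scaled CPM in the lowest, 605 in the median and 887 in the highest low-risk liver (mean 639 ± 153, SD, n = 16), and 2.45, 25.1 and 139 in high-risk livers (mean 45.8 ± 50.7, n = 10). Every high-risk liver lay under the lowest low-risk liver, and the level spanned more than an order of magnitude within the high-risk group. Slco1a1 was 14.2-fold lower (log2 difference -3.83, SE 0.54, adjusted p = 2.07e-06 by edgeR). Slco1b2 had 1315, 1665 and 2303 scaled CPM as lowest, median and highest value in low-risk livers, and 310, 429 and 1037 in high-risk livers. These groups did not overlap either, and the gene was 3.25-fold lower (-1.70, SE 0.20, adjusted p = 1.01e-07). Slc10a1 had 462, 678 and 942 scaled CPM in low-risk livers and 116, 170.5 and 480.2 in high-risk livers. A single high-risk liver lay inside the low-risk range, and the gene was 3.2-fold lower (-1.68, SE 0.21, adjusted p = 2.33e-07).

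The synthesis enzymes differed in size and spread. Cyp27a1 of the alternative route had 370.1, 505 and 634 scaled CPM as lowest, median and highest value in low-risk livers and 125, 168 and 332 in high-risk livers. The groups did not overlap, and the gene was 2.65-fold lower (-1.41, SE 0.16, adjusted p = 9.42e-08 by edgeR). Cyp7b1, which acts after Cyp27a1, had 102, 455 and 811 scaled CPM in low-risk livers and 4.68, 52.5 and 175 in high-risk livers. Of 10 high-risk livers, 6 lay under the low-risk range and 4 inside it; the gene was 5.17-fold lower (-2.37, SE 0.47, adjusted p = 1.79e-04). Cyp8b1 had 153, 459.8 and 724 scaled CPM in low-risk livers and 68.9, 136 and 378 in high-risk livers. For Cyp8b1, 7 of 10 high-risk livers lay under the low-risk range (-1.37, SE 0.30, adjusted p = 4.95e-04). Cyp7a1, the rate-limiting enzyme, had 25.4, 114 and 361 scaled CPM in low-risk livers and 18.6, 52.9 and 158 in high-risk livers. Its difference of -0.99 (SE 0.43) did not pass the threshold (adjusted p = 0.0671), and 9 of 10 high-risk livers lay inside the low-risk range.

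Baat, the conjugating enzyme, had 203, 256 and 378 scaled CPM as lowest, median and highest value in low-risk livers and 94.5, 118 and 189.7 in high-risk livers. The groups did not overlap, with a difference of -0.98 (SE 0.12, adjusted p = 2.49e-07 by edgeR). Abcb11, the export pump, had 676, 807 and 1223 scaled CPM in low-risk livers and 515, 589 and 840.2 in high-risk livers, the smallest difference of the 9 (-0.52, SE 0.11, adjusted p = 3.87e-04). Nr0b2 had 6.29, 24.3 and 40.1 scaled CPM in low-risk livers and 5.1, 13.7 and 23.8 in high-risk livers. Most of its values overlapped, and its call (-0.79, SE 0.29, adjusted p = 0.0306) was lost without high-risk mouse 15 (adjusted p = 0.0641) and without low-risk mouse 24 (adjusted p = 0.0509), the library with raised Xist. The call was also lost without a filter on low counts (adjusted p = 0.0884) and within batch 1 or batch 2 alone (adjusted p = 0.251 and 0.155). Without mouse 24, Cyp7a1 passed (-1.06, adjusted p = 0.0468). Within batch 2 alone 8 of the 10 genes were lower, beside 32.3% of all genes called in either direction. Within batch 1 alone, with 3 high-risk livers, 6 were lower, beside 4.69%. Cyp8b1 (-1.23) and Abcb11 (-0.49) were the other calls lost in batch 1. The Slco1a1 differences were -4.16 (adjusted p = 4.45e-04) in batch 2 and -3.26 (adjusted p = 0.0207) in batch 1.

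**Figure D2:**
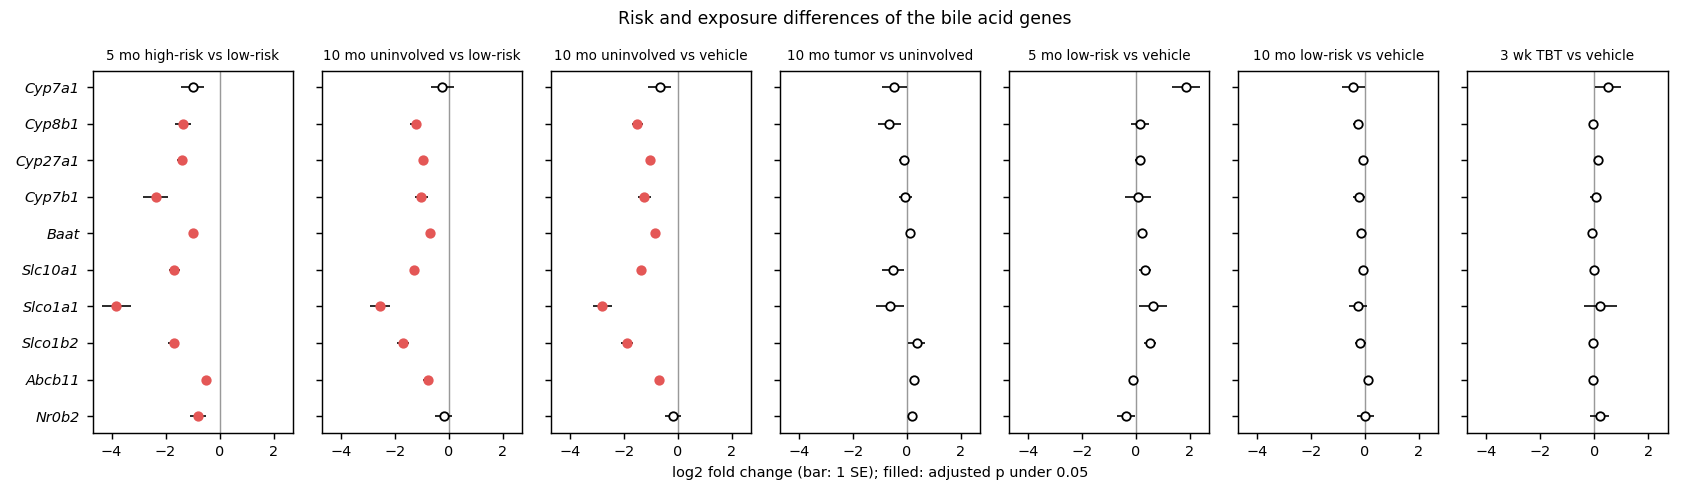
Log2 difference of each gene (horizontal axis) in each comparison, with bars of 1 standard error; filled points passed an adjusted p of 0.05 in edgeR. Slco1a1 lies farthest to the left where high-risk or uninvolved liver is set against low-risk or vehicle liver (-2.53 to -3.83), and the 10 genes lie between -0.10 and 0.50 at 3 weeks.

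Against vehicle livers of 5 months, high-risk livers had lower levels of the same number of genes, 9 of 10, with 7.38% of 14773 genes lower and 8.47% higher. The comparison shares its high-risk livers with the one above. Slco1a1 was 9.21-fold lower (-3.20, SE 0.58, adjusted p = 6.38e-04 by edgeR), Cyp7b1 4.93-fold lower (-2.30, SE 0.54, adjusted p = 0.00439) and Slc10a1 2.54-fold lower (-1.35, SE 0.25, adjusted p = 7.15e-04). The other 6 genes that passed, Cyp27a1, Cyp8b1, Slco1b2, Nr0b2, Baat and Abcb11, had differences between -1.27 and -0.62. Of these, Cyp8b1 was no longer called without a filter on low counts, with only these groups in the fit or without the libraries that stood apart (adjusted p = 0.0990, 0.101 and 0.0568). Nr0b2 was no longer called without the filter, with only these groups, without the batch covariate or without high-risk mouse 15 (adjusted p = 0.131, 0.0660, 0.0512 and 0.0676). Cyp7a1 had 15.5, 28.5 and 98 scaled CPM as lowest, median and highest value in vehicle livers, with the vehicle median under the high-risk median of 52.9, and its difference of 0.86 (SE 0.55) was not called (adjusted p = 0.295). The median difference of the 10 genes was -1.19, beside -0.01 over all genes.

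None of the 10 genes separated high-risk from vehicle livers completely, beside 0.0271% of all genes tested that were lower with no overlap. Vehicle livers split among themselves: Slco1a1 had 35.4 scaled CPM in vehicle mouse 6 and 137 in mouse 4, but 479 to 915 in the other 6. Vehicle mice 4, 6 and 9 had 9, 8 and 8 of the 10 genes at or under the highest high-risk value, whereas the other 5 vehicle mice had 1 or 2. Mouse 9 was among the libraries that stood apart technically. Within batch 1 alone, with 3 high-risk and 7 vehicle livers, no gene of the 10 or of the whole table was called (Slco1a1 -2.68, adjusted p = 0.114), and batch 2 held 1 vehicle liver, so no value within it was computed.

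No difference between low-risk and vehicle livers of 5 months was called in any of the 10 genes (edgeR). No gene of the table was called (0% of 14773), while 934 had an unadjusted p under 0.05 and DESeq2 called 52 genes, a set that held none of the 10. Of the 10 genes, 2 had an unadjusted p under 0.05. Slco1b2 differed by 0.52 (SE 0.21, adjusted p = 0.674). Cyp7a1 differed by 1.85 (SE 0.53), 3.61-fold, with an unadjusted p of 0.00147 and an adjusted p of 0.394 by edgeR; 9 of 16 low-risk livers lay above the highest vehicle liver and none under the lowest. Cyp7a1 is known to follow the daily clock, and clock genes were read beside it. The clock output gene Dbp had a median of 32.2 scaled CPM in low-risk livers (0.455 to 98.7) and 4.26 in vehicle livers (1.77 to 17.9), a difference of 2.53 (adjusted p = 0.589). Of 12 clock genes, 5 had an unadjusted p under 0.05 and none was called. In high-risk against low-risk livers 4 of the 12 were called, all lower. The median over all 12 was -0.92, with a range of -1.63 to 0.80. In that comparison 18.5% of all genes tested were lower and 20.3% higher. The 4 clock genes were the repressors Nr1d1 (-1.32) and Nr1d2 (-0.85), Per2 (-0.99) and Tef (-1.20). Dbp had a median of 2.45 scaled CPM in high-risk livers (1.09 to 48.3), a difference of -1.63 from low-risk livers (adjusted p = 0.0947). The part of clock genes in the bile acid genes was not tested.

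At 10 months, uninvolved liver of high-risk mice again had lower levels of bile acid genes than low-risk liver. Of the 10 genes, 8 were lower and none was higher, beside 24.7% of 16338 genes lower and 27.7% higher, with a median of -0.97 beside 0.05 over all genes. All 8 genes but Cyp7b1 were lower with no overlap between the 5 uninvolved and the 5 low-risk samples, beside 15% of all genes tested. The rate-limiting enzyme Cyp7a1 and the regulator Nr0b2 were the 2 that were not called. The 6 uninvolved libraries also stood apart from the low-risk libraries in mitochondrial share (4.2 to 5.85% against 2.94 to 3.08%), detected genes (24676 to 28715 against 21663 to 22578) and total counts (34762240 to 44585060 against 26428664 to 33486835), with no overlap. The vehicle livers and TBT tumors of 10 months lay under the uninvolved libraries in all 3 measures. The part of these library measures in the results was not tested.

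Slco1a1 had 826, 801, 885, 875 and 586 scaled CPM in low-risk mice 2, 4, 8, 9 and 10, and 144, 275, 167, 72.6 and 36.5 in uninvolved liver of mice 1, 5, 7, 12 and the summed mice 3 and 6. It was 5.79-fold lower (log2 difference -2.53, SE 0.37, adjusted p = 4.91e-05 by edgeR). Slco1b2 had 2027, 1862, 2014, 2139.8 and 1916 scaled CPM in the low-risk mice in the same order, and 816, 737, 820.1, 454 and 259 in uninvolved liver. The values of mice 3 and 6, and of mouse 12, were the lowest for both carriers. Slco1b2 was 3.26-fold lower (-1.70, SE 0.22, adjusted p = 1.31e-05). Slc10a1 had 622 to 759.7 scaled CPM in low-risk and 176 to 359 in uninvolved liver, 2.45-fold lower (-1.29, SE 0.15, adjusted p = 4.39e-06). The sodium-dependent and the sodium-independent carriers were thus both low in these samples.

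Cyp8b1 had 467, 534, 800.4, 673 and 584 scaled CPM in low-risk mice 2, 4, 8, 9 and 10, and 247, 267, 309, 340.3 and 153 in uninvolved liver of mice 1, 5, 7, 12 and the summed mice 3 and 6. Its 2.34-fold difference passed (-1.23, SE 0.21, adjusted p = 1.31e-04 by edgeR). Cyp27a1 was 1.92-fold lower (572 to 698 against 292 to 488 scaled CPM, adjusted p = 3.59e-05), Abcb11 1.72-fold lower (1034 to 1232 against 495 to 891, adjusted p = 7.64e-04) and Baat 1.62-fold lower (243 to 376 against 158 to 223, adjusted p = 3.01e-04). Cyp7b1 was 2.02-fold lower (adjusted p = 0.00228), with low-risk mouse 10 at 219.7 scaled CPM inside the uninvolved range of 150.1 to 297. Cyp7a1 had 202, 147, 78, 76.8 and 69.1 scaled CPM in low-risk and 132, 67.9, 167, 63.9 and 63.1 in uninvolved liver in the same orders (-0.23, SE 0.44, adjusted p = 0.682). Nr0b2 differed by -0.19 (SE 0.32, adjusted p = 0.637). For both genes low-risk and uninvolved liver overlapped. In the same orders, the clock output gene Dbp had 57.5, 57.1, 6.25, 6.41 and 3.64 scaled CPM in low-risk liver. In uninvolved liver it had 39.4, 2.31, 6.92, 13.5 and 11.5. Of 12 clock genes 1 was higher and 1 lower in this comparison, beside 27.7% of all genes tested higher and 24.7% lower. The part of clock genes in these levels was not tested.

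Against vehicle liver of 10 months, uninvolved liver was lower in 8 of the 10 genes, beside 26.5% of 16338 genes lower and 31.2% higher, with a median of -1.14 beside 0.06 over all genes. The comparison shares the uninvolved samples with the one above. The 8 ranged from -2.80 (SE 0.36) for Slco1a1, 6.97-fold lower, to -0.70 (SE 0.16) for Abcb11. All 8 but Abcb11 separated the 5 uninvolved from the 6 vehicle samples, beside 15% of all genes tested; Slco1a1 had 867, 928 and 1076 scaled CPM as lowest, median and highest value in vehicle liver. No difference between low-risk and vehicle liver of 10 months was called in the 10 genes by edgeR (0% of 16338 genes called; 688 had an unadjusted p under 0.05, none of them among the 10, and DESeq2 called 1 gene, which was none of the 10). Their differences ran from -0.44 for Cyp7a1 to 0.09 for Abcb11, with a median of -0.16 beside 0.00 over all genes. Of 12 clock genes, 5 had an unadjusted p under 0.05 by edgeR in low-risk against vehicle liver, and none was called. In uninvolved against vehicle liver 3 of the 12 were higher and 2 lower.

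Tumors were set against uninvolved liver of high-risk mice to ask whether these genes differed between them. None of the 10 was called by edgeR, none had an unadjusted p under 0.05 and DESeq2 called none, beside 7.55% of 16362 genes higher and 10.5% lower in tumors. Differences ran from -0.65 (SE 0.42) for Cyp8b1 to 0.36 (SE 0.31) for Slco1b2, with a median of -0.08 beside -0.01 over all genes. Slc10a1 had 159, 149.7, 218, 283, 429, 41.8 and 133 scaled CPM in the tumors of mice 1, 3, 5, 6, 7, 11 and 12, where mouse 11 was the lowest and mouse 7 the highest. Cyp8b1 had 98, 168, 146, 207, 408, 43.2 and 111 scaled CPM in the same tumors, with the same mice at both ends. Nr0b2 stayed between 20.6 and 27.4 scaled CPM in all 7 tumors.

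Mouse by mouse, the direction was mixed. Of the 10 genes, 9 were higher in the tumor than in the uninvolved liver in mouse 7, 4 in mouse 1, 3 in mouse 5 and 2 in mouse 12. Mice 3 and 6, with 7 and 9 higher genes, do not count as separate pairs, since their uninvolved libraries were nearly alike. Over the other 4 mice Nr0b2 was higher in the tumor in 4, Abcb11 and Baat in 3 and Cyp7a1 in 0. With the mouse as a block, none of the 10 genes was called either. Without mice 3 and 6 the blocked edgeR fit over 4 mice called 2 of the 10: Nr0b2 was higher by 0.44 (adjusted p = 0.0239) and Cyp7a1 differed by -0.63 (adjusted p = 0.0412). Nr0b2 also passed in the unblocked comparison without that summed sample (0.37, adjusted p = 0.0235).

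**Figure D3:**
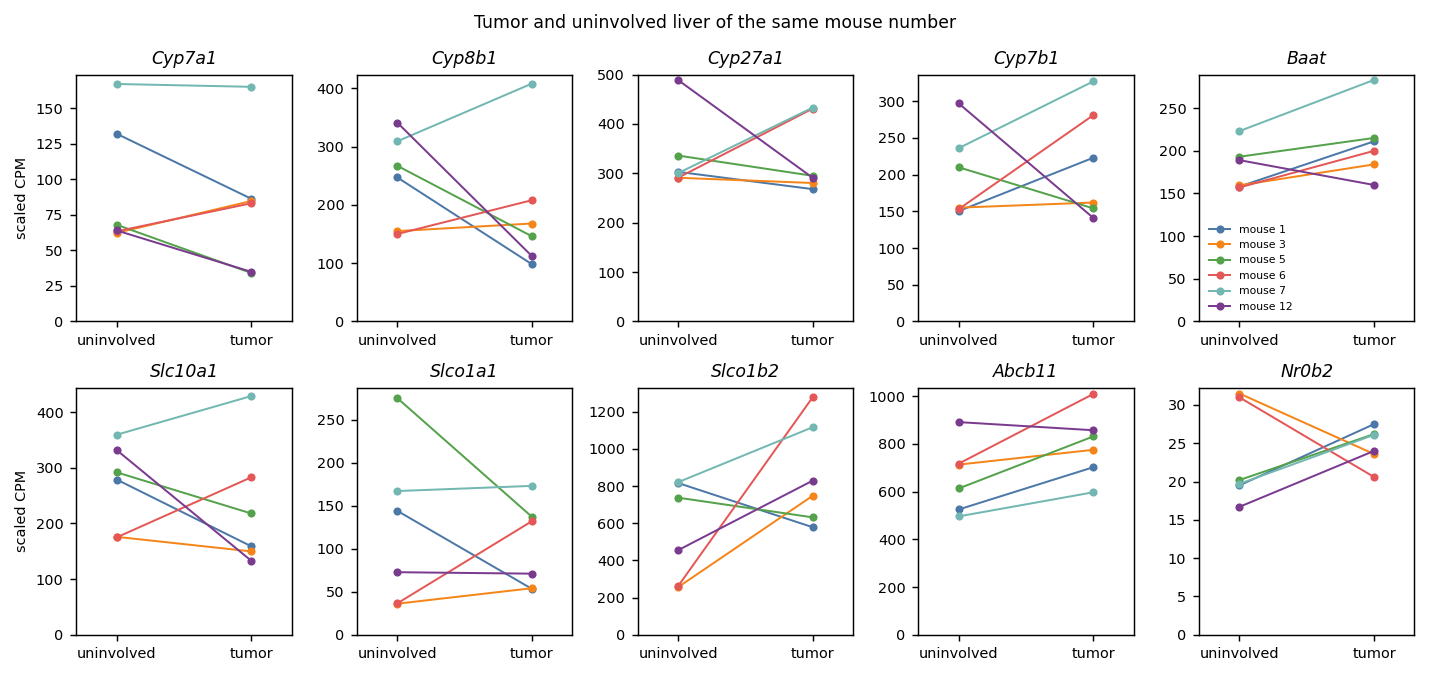
Level of each gene (vertical axis, scaled CPM on a linear scale from 0) in uninvolved liver and tumor of the same mouse, with a line for each of 6 mice; the uninvolved libraries of mice 3 and 6 count as 1 sample. Lines for Slco1a1, Cyp8b1 and Slc10a1 run in both directions, while Abcb11 and Baat rise in 3 of the other 4 mice.

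Tumors against vehicle liver gave 8 lower genes of 10 and none higher, beside 21% of 15293 genes lower and 24.8% higher, with a median of -1.18 beside -0.01 over all genes. Slco1a1 had 21.7, 70.9 and 173 scaled CPM as lowest, median and highest value in tumors, all under the lowest vehicle liver, and was 10.3-fold lower (-3.37, SE 0.39, adjusted p = 2.87e-05 by edgeR). Cyp8b1 was 4.32-fold lower (-2.11, SE 0.40, adjusted p = 7.74e-04), Slc10a1 3.61-fold lower (-1.85, SE 0.38, adjusted p = 0.00132) and Slco1b2 2.78-fold lower (-1.48, SE 0.20, adjusted p = 5.16e-05). Cyp7b1 (-1.26), Cyp27a1 (-1.10), Baat (-0.68) and Abcb11 (-0.40) also passed, and 6 of the 8 had no overlap (beside 9.54% of all genes tested), the exceptions being Baat and Abcb11. Cyp7a1 had 66, 143 and 266 scaled CPM in vehicle liver and 23.6, 83 and 164 in tumors, a difference of -1.07 (SE 0.47) that did not pass (adjusted p = 0.0762). Nr0b2 differed by 0.06 (SE 0.17, adjusted p = 0.801).

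Vehicle livers were then compared between ages. The tests of both age steps used batch 1 only, and so 7 of the 8 vehicle livers of 5 months. Levels and marker sums printed beside them are of all 8, with mouse 8 of batch 2 included. Between 3 weeks and 5 months 4 of the 10 genes rose and none fell, beside 11.9% of 14962 genes higher and 12.3% lower, with a median of 0.70 beside 0.02 over all genes. Cyp7b1 had 13.4, 18 and 22 scaled CPM as lowest, median and highest value at 3 weeks and 88.4, 556 and 880.1 at 5 months, 27.4-fold higher (log2 difference 4.77, SE 0.36, adjusted p = 4.19e-09 by edgeR). Slco1a1 had 6.69, 21.8 and 33.9 scaled CPM at 3 weeks and 35.4, 573 and 915 at 5 months, 25.9-fold higher (4.69, SE 0.56, adjusted p = 3.46e-06). Neither gene overlapped between the ages, although the lowest 5-month value of Slco1a1 came close to the highest 3-week value. How many of all genes did not overlap between the ages was not counted. Cyp27a1 rose by 0.76 (SE 0.20, adjusted p = 0.00721) and Baat by 0.74 (SE 0.14, adjusted p = 3.24e-04). Slc10a1 differed by -0.58 (SE 0.22) with an adjusted p of 0.0619 by edgeR, which DESeq2 called, and Cyp7a1 by 0.07 (SE 0.53). Markers of other cells moved at this step: all 5 endothelial genes were lower at 5 months (summed level 174 to 383 against 419 to 496 scaled CPM), as were 4 of 6 stellate cell and fibroblast genes (80.6 to 556 against 711 to 1216) and 4 of 6 macrophage genes (154 to 529 against 364 to 616). Their part in these differences was not tested.

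The list of genes known to be male-biased in mouse liver moved with Slco1a1 and Cyp7b1 at this step. Of its 6 genes 5 rose, beside 11.9% of all genes tested, and the median over all 6 was 4.54. Their summed level went from 399.7 to 726 scaled CPM at 3 weeks to 1691 to 6261 at 5 months. In 5-month high-risk livers 5 of these 6 genes were lower than in low-risk livers, beside 18.5% of all genes tested. Their sum was 235 to 3006 scaled CPM in high-risk livers and 2263 to 16783 in low-risk livers. In uninvolved liver of 10 months 3 of the 6 were lower than in low-risk liver (2466 to 4330.3 against 3400.3 to 5908), beside 24.7% of all genes tested. The part of this list in the bile acid genes was not tested.

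Between 5 and 10 months 4 of the 10 genes rose in vehicle liver and none fell, beside 6.68% of 14962 genes higher and 7.41% lower, with a median of 0.66 beside -0.04 over all genes. Slco1b2 had 449.7, 1288 and 1717 scaled CPM as lowest, median and highest value at 5 months and 2047, 2300.5 and 2409 at 10 months. The ages did not overlap (1.04, SE 0.22, adjusted p = 0.00378 by edgeR), and the share of all genes without overlap was not counted. Cyp7a1 rose by 1.71 (SE 0.55, adjusted p = 0.0447), Cyp27a1 by 0.64 (SE 0.21, adjusted p = 0.0415) and Baat by 0.46 (SE 0.14, adjusted p = 0.0313), and these 3 overlapped between the ages. Slco1b2 alone of the 4 was called when the vehicle liver labelled as a tumor was counted with the vehicles (Cyp7a1 1.71, adjusted p = 0.0608), while DESeq2 called 6 genes, with Cyp8b1 and Slc10a1 added. Vehicle mice 4, 6 and 9 of 5 months, with 9, 8 and 8 of the 10 genes at or under the highest high-risk value, were part of this comparison. Cyp27a1 had 239.9, 267 and 243 scaled CPM in them. It had 524, 556, 572 and 657 in mice 1, 2, 3 and 5, and 571 to 844 at 10 months. The part of these 3 mice in the rise was not tested. The ages cannot be told apart from other differences between the sets of mice.

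The gap between high-risk and low-risk tissue was compared between 5 and 10 months by an interaction term, which called 0.448% of 16084 genes and none of the 10 in edgeR; none of the 10 had an unadjusted p under 0.05 and DESeq2 called none. The terms ran from -0.26 (SE 0.20) for Abcb11 to 1.36 (SE 0.73) for Cyp7b1, with a median of 0.42 beside 0.03 over all genes. A positive term is a smaller deficit at 10 months. Slco1a1 had a term of 1.31 (SE 0.76, adjusted p = 0.502).

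Because Nr0b2 is known to repress Cyp7a1 and Cyp8b1, the levels of these 3 genes were compared across mice within the low-risk and the high-risk group at 5 months, 6 relations in all. None passed after adjustment. Nr0b2 and Cyp7a1 had a Pearson r of -0.50 and a Spearman rho of -0.53 over 16 low-risk livers (permutation p = 0.0489 and 0.0367; adjusted 0.293 and 0.220). Within batch 2 r was -0.76 over 10 livers and within batch 1 it was 0.07 over 6. Without the 2 livers farthest from the median of Nr0b2, r was -0.35 and rho -0.42 (permutation p = 0.217 and 0.142). In the 10 high-risk livers r was 0.33 and rho 0.50 (adjusted p = 0.530 and 0.292 by permutation). Within batch 2 r was 0.69 over 7 high-risk livers (unadjusted permutation p = 0.0795). Without the 2 high-risk livers farthest from the median of Nr0b2, r was 0.68 and rho 0.76 (unadjusted permutation p = 0.0654 and 0.0371). Without libraries that stood apart, r was 0.23 over 8 high-risk livers. Nr0b2 and Cyp8b1 had an r of 0.33 and a rho of 0.44 in low-risk livers, and -0.22 and -0.32 in high-risk livers. For Cyp7a1 and Cyp8b1, r was 0.20 and rho 0.00 in low-risk livers, and 0.52 and 0.42 in high-risk livers. The difference between the groups was not tested.

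**Figure D4:**
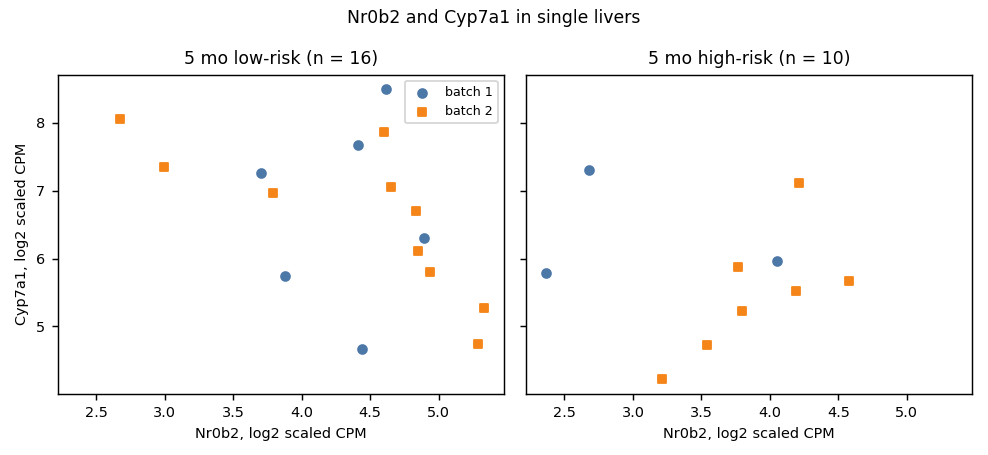
Cyp7a1 against Nr0b2 at 5 months (both axes log2 scaled CPM), with low-risk and high-risk livers in separate panels and the sequencing batches marked. Low-risk livers slope downwards in batch 2 (r = -0.76) but not in batch 1 (r = 0.07). High-risk livers show no downward slope (r = 0.33 over both batches, 0.69 within batch 2).

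Other genes of the bile acid pathway were read from 3 lists: 12 other synthesis and conjugation enzymes, 13 other transporters and 11 regulators. In 5-month high-risk against low-risk livers, 6 of 10 tested enzymes were lower and 1 higher, 2 of 12 transporters lower and 4 higher, and 5 of 9 regulators lower and none higher, beside 18.5% of all genes lower and 20.3% higher. Abcc4, which exports bile acids into blood, had 2.26, 4.21 and 5.44 scaled CPM as lowest, median and highest value in low-risk livers and 5.67, 15.6 and 26.7 in high-risk livers. The groups did not overlap (2.04, SE 0.19, adjusted p = 6.57e-09 by edgeR), and the share of all genes higher without overlap was not counted. Ephx1, the microsomal epoxide hydrolase, was higher by 1.08 (adjusted p = 8.58e-05) and Slc51b, a subunit of the basolateral bile acid exporter, by 2.19 (adjusted p = 3.72e-04). Slc51b was low throughout, with medians of 2.1 scaled CPM in high-risk and 0.316 in low-risk livers. The lower genes with the smallest adjusted p were Nr5a2 (LRH-1, an activator of Cyp7a1 and Cyp8b1; -0.61, 1.25e-06), the carrier Slco2b1 (-0.99, 1.30e-06) and the bile acid receptor Nr1h4 (-0.90, 4.77e-06).

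Against vehicle livers of 5 months, Abcc4 (1.63) and Ephx1 (1.06) were higher in high-risk livers, and Slco2b1 (-0.90), Slc27a5 (bile acid coenzyme A ligase, -1.15) and Cyp2c70 (the mouse enzyme of muricholic acid synthesis, -1.24) were the lower genes with the smallest adjusted p in edgeR. In uninvolved against low-risk liver of 10 months, 8 of 11 tested enzymes were lower, 3 of 13 transporters lower and 3 higher, and 5 of 9 regulators lower, beside 24.7% of all genes lower and 27.7% higher. Abcc4 (1.67, SE 0.18, adjusted p = 1.99e-06), Slc51b (2.43, adjusted p = 0.00450) and the sterol exporter Abcg5 (0.62, adjusted p = 0.0120) were higher. Slco2b1 (-0.86), Slc27a5 (-1.05) and Klb, the coreceptor for FGF15 signalling (-1.09, adjusted p = 1.43e-05), were lower. Against vehicle liver the same 3 were the higher genes (Abcc4 1.78, Slc51b 2.95, Abcg5 0.76) with the smallest adjusted p, and Slco2b1 (-0.88), Slc27a5 (-1.20) and Nr1h4 (-0.86) the lower ones.

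Tumors had more Abcc4 than uninvolved liver (9.62, 33.8 and 59.7 scaled CPM as lowest, median and highest value in tumors, 8.06 to 17.5 in uninvolved liver; 1.52, SE 0.43, adjusted p = 0.0294 by edgeR). Atp8b1, a phospholipid flippase of the canalicular membrane (0.32, adjusted p = 0.0307), and Akr1d1, a reductase of bile acid synthesis (0.50, adjusted p = 0.0331), were the only other genes of the 3 lists called there, both higher. Against vehicle liver, Abcc4 (3.33), Slc51b (3.87) and Abcg5 (0.96) were higher in tumors and Nr1h4 (-1.01), Slco2b1 (-0.76) and Slc27a5 (-1.03) lower. In that comparison 7 of 11 enzymes were lower and 1 higher, 1 of 13 transporters lower and 7 higher, and 6 of 9 regulators lower and 2 higher, beside 21% of all genes lower and 24.8% higher. In vehicle livers from 3 weeks to 5 months, Slc10a2 (3.24), Ephx1 (1.32) and Abcc3 (1.12) rose, and Cyp39a1 (-2.08), Slco1a4 (-2.20) and Abcg5 (-0.78) fell. From 5 to 10 months Akr1d1 (1.13), Abcc3 (0.71) and Slco1a4 (0.76) rose.

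**Figure D5:**
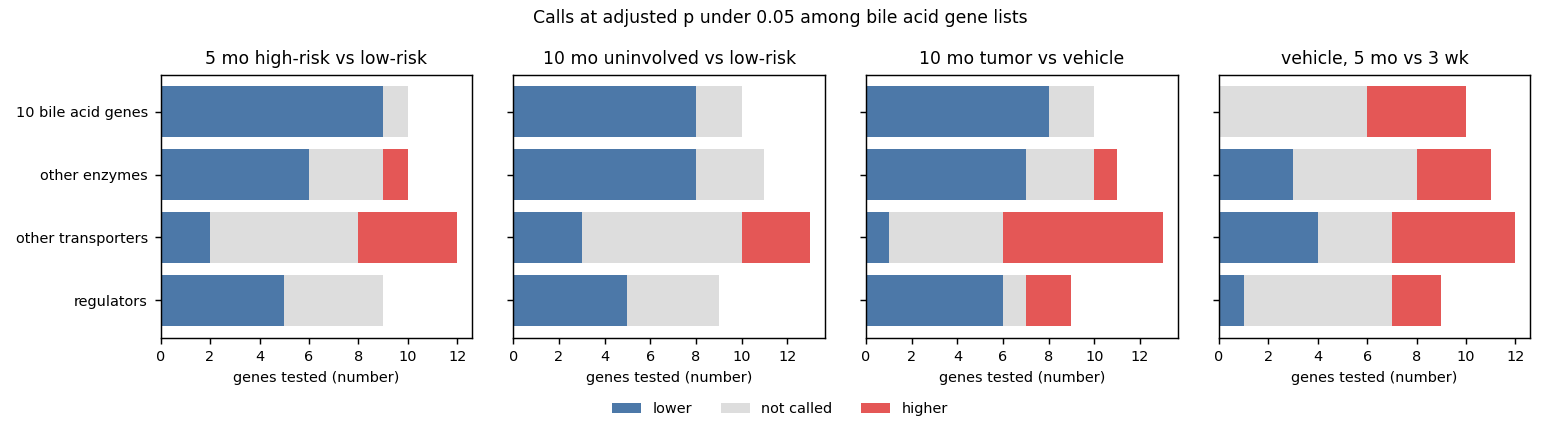
Number of genes tested (horizontal axis) that were lower, not called or higher at an adjusted p under 0.05 in edgeR, for the 10 bile acid genes and the 3 other lists, in 4 comparisons. Lower calls fill most of the enzyme bars in high-risk, uninvolved and tumor tissue, and the transporter list holds 7 higher calls in tumors against vehicle liver.

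Markers of other cells and zones were read beside these genes. Of all genes tested, 18.5% were lower and 20.3% higher in 5-month high-risk against low-risk livers. In uninvolved against low-risk liver of 10 months these shares were 24.7% and 27.7%. In 5-month high-risk against low-risk livers, 5 of 6 cholangiocyte and progenitor genes were higher, with summed levels of 33 to 355 scaled CPM against 27.3 to 225, and so were 5 of 6 stellate cell and fibroblast genes (438 to 1205 against 193 to 393), while the sixth, Lrat, was lower (-0.65). Of 5 endothelial genes 3 were lower and 1 higher (154 to 341 against 199 to 409.5), of 6 macrophage genes 1 lower and 2 higher (176 to 503 against 251 to 561), and of 6 periportal hepatocyte genes 2 higher (5695 to 9135 against 4459.9 to 8791). All 6 pericentral hepatocyte genes were lower (1131 to 6349.9 against 6811 to 15597), and of the 5 hepatocyte genes tested 3 were lower (65753 to 174593 against 87815 to 176577). In uninvolved against low-risk liver of 10 months, 6 of 6 cholangiocyte and progenitor genes (106 to 212 against 37.3 to 59.98) and 5 of 6 stellate cell genes (381 to 555 against 234 to 319) were higher, Lrat was again lower (-0.56), and 5 of 6 pericentral genes were lower (1886 to 6581 against 8839.8 to 10689). Of 5 hepatocyte genes, 3 were lower there (73646 to 103755 against 117701 to 125431), and of 6 macrophage genes 4 were lower and 1 higher (184 to 372 against 353 to 435). Of 5 endothelial genes 2 were lower and 1 higher (219 to 296 against 268 to 313). Among 6 periportal genes 3 were higher (6456 to 10102 against 4729.5 to 8347). In tumors against vehicle liver all 6 cholangiocyte and progenitor genes were higher (147 to 769 against 38.1 to 54.2), beside 24.8% of all genes tested. Of 6 stellate cell genes 4 were higher and 1 lower (332 to 606 against 161 to 305). Of 5 hepatocyte genes 4 were lower there (73145 to 122511 against 125256 to 144057), as were 3 of 6 pericentral genes (1082 to 8438 against 9128 to 13633), beside 21% of all genes. Of 5 endothelial genes 3 were lower and 2 higher, of 6 macrophage genes 1 lower and 1 higher, and of 6 periportal genes 2 higher. No gene of these lists was at 0 in all samples of a group. The part of these cells and zones in the bile acid genes was not tested.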

How the data were processed

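Bulk liver RNA was sequenced in 75 libraries. The deposited values are counts per gene for 55536 genes, made by the authors with Trim Galore, HISAT2 and featureCounts on mm10, per the submitters' processing notes, and adjusted between batches with ComBat-seq, per the file name. How strand was set in counting, and which groups that adjustment protected, is not given in the sources used here. All 55536 identifiers matched GENCODE M21 (GRCm38), which gave positions and exon lengths.

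A pair of 3-week vehicle libraries of mouse 3 were summed, as were the uninvolved libraries of mice 3 and 6 (median squared z of their count differences 0.57, against 1.49 for the next closest replicate pair), which left 73 samples. A 10-month vehicle library with a tumor label was kept out of all comparisons. Comparisons of vehicle livers between ages used batch 1 only. Tests used edgeR 4.0.16 in R 4.3.3 (TMM, filterByExpr, robust quasi-likelihood F test, Benjamini-Hochberg adjusted p under 0.05 over all genes tested), with batch as a covariate at 5 months; each SE was derived from its F statistic. Scripts were tested on simulated data. Alternatives were DESeq2 1.42.0, other size factors, no filter, other sample sets, batches alone, single samples left out and a replicate block. Libraries under 5000000 counts, over 35000 detected genes or over 10% mitochondrial counts were left out as an alternative.

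The 10 genes and all lists were chosen with earlier results of these data known. Other bile acid genes are named as the 3 higher and 3 lower with the smallest adjusted p in a comparison. By their labels, 6 of the 7 tumors come from mice with an uninvolved library, and mouse 11 has a tumor only. The deviations of paired samples correlated between -0.39 and 0.71, with 4 of 6 over 0.1 and 2 of 6 closest to their own number. Other groups share mouse numbers only. Correlations used log2 scaled CPM with a prior count of 1 and 1e+05 permutations.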

Additional observations from a re-analysis of the deposited data

Results flagged for a closer look

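In groups of 4 to 10 samples, the highest and the lowest sample of each of the 10 genes were checked for a gap to the nearest other sample that took up most of the group's range. Of 80 groups checked, 6 were marked, and chance marks about 1 in 20. Cyp27a1 had 488 scaled CPM in uninvolved liver of mouse 12 and 292 to 335 in the other uninvolved samples. Slco1a1 had 91 scaled CPM in TBT mouse 8 of 3 weeks, where the others had 7.62 to 33.9, and 586 in low-risk mouse 10 of 10 months, where the others had 801 to 885. Abcb11 had 803 scaled CPM in vehicle mouse 3 of 3 weeks (others 944 to 1040) and 722 in TBT mouse 5 of 3 weeks (others 882 to 978). Nr0b2 had 31.4 scaled CPM in the summed uninvolved sample of mice 3 and 6, against 16.7 to 20.2 in the other 4.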

How the results depend on the processing

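Of the results for single genes under alternatives, 747 kept their direction and their side of the threshold, 48 kept only their direction, 8 passed the threshold newly and 3 changed sign. The 3 had no call to lose: Cyp7a1 in uninvolved against low-risk liver ranged from -0.48 to 0.06 when single samples were left out (0.06 without low-risk mouse 2), Nr0b2 there from -0.38 to 0.01 (0.01 without low-risk mouse 8), and Nr0b2 in tumor against vehicle liver was -0.01 with the replicate block. The number of called genes among the 10 in high-risk against vehicle livers of 5 months fell from 9 to 0 within batch 1 and to 0 with the replicate block, with fewer samples in both and no call in the whole table. For tumor against uninvolved liver it was 0, rose to 2 in the replicate block without mice 3 and 6, and was 0 to 1 when single samples were left out (1 without the summed sample of mice 3 and 6). For vehicle livers of 10 against 5 months it fell from 4 to 1 without a filter on low counts, to 1 with only the groups compared, to 1 with the vehicle tumor library added and to 2 with the replicate block; the cause was not tested. In tumor against vehicle liver the replicate block left 6 of 8 calls (Cyp7b1 adjusted p = 0.0655, Abcb11 adjusted p = 0.0757), and in uninvolved against vehicle liver it left all 8. Apart from tumor and uninvolved liver, same-numbered samples share only a number, with correlations between -0.30 and 0.59. In uninvolved against vehicle liver all 4 correlated best with their own number, but only at 0.1 to 0.15. In tumor and uninvolved liver of the same mice 2 of 6 did so. Nr0b2 with Cyp7a1 in low-risk livers had r = 0.07 within batch 1, -0.76 within batch 2 and -0.56 without libraries that stood apart (unadjusted permutation p = 0.885, 0.0117 and 0.0301). Without the 2 samples farthest from the median, r of Cyp7a1 with Cyp8b1 in low-risk livers changed sign, from 0.20 to -0.23. That of Nr0b2 with Cyp8b1 in high-risk livers also changed sign, from -0.22 to 0.18. Calls in the whole table moved by over 1.5 times in some settings: in high-risk against low-risk livers to 773 within batch 1; in high-risk against vehicle livers from 2341 to 1211 without a filter, 1338 with only these groups and 4264 without vehicle mouse 9; in tumor against uninvolved liver from 2961 to 1580, 1590 and 1611 without uninvolved mouse 1, 5 or 7, 1920 with the replicate block and 5346 with all 10-month groups in a single fit; in tumor against vehicle liver to 4206 with the vehicle tumor library and 3972 with the block; in uninvolved against vehicle liver to 6019 with that library; in vehicle livers of 5 months against 3 weeks from 3616 to 2172 without a filter and 5790 without vehicle mouse 9 of 5 months; in vehicle livers of 10 against 5 months between 671 with the vehicle tumor library and 3700 without libraries that stood apart (3448 without vehicle mouse 9 alone). The interaction called 72 genes, 4 without a filter, 231 by DESeq2, 6 to 80 when single 10-month samples were left out (6 without low-risk mouse 4) and 208 without low-risk mouse 24 of 5 months. The shares of all genes beside those counts move with these libraries. Without a filter, the median difference of all genes shifted to 0.50 in high-risk against low-risk livers of 5 months and to -0.93 in vehicle livers of 10 against 5 months. Depth limits Nr0b2 most, with 11 counts in its lowest sample.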

Other observations

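A 10-month vehicle library carried a tumor label and was kept out of the comparisons. Its Slco1a1 level was 144 scaled CPM, between the lowest and the highest tumor of TBT mice (21.7 and 173) and under the lowest vehicle liver (867). Slco1b2 stood at 755, Slc10a1 at 295, Cyp8b1 at 171, Cyp27a1 at 242 and Cyp7b1 at 155 scaled CPM, all under the lowest vehicle liver of 10 months. Cyp7a1 at 152 scaled CPM lay inside the vehicle range, and Nr0b2 at 10.1 lay under the lowest vehicle liver (14) and the lowest tumor of TBT mice (20.6). The library was among the 6 that stood apart, with 14.1% mitochondrial counts against 3.14 to 3.83% in the other vehicle livers and 2.64 to 3.46% in tumors of TBT mice, and it has no replicate check.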
